A study of Mus musculus with 8 samples.

Results

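The genes described here are 10 genes grouped as immediate early genes outside the FOS, JUN, EGR and MYC families: Ier2, Ier3, Ier5, Phlda1, Phlda2, Phlda3, Nr4a1, Nr4a2, Arc and Srf. They were chosen by family name, through the RefSeq accession of each non-control probe, and not by how fast each responds. They are 10 of 20972 genes with a symbol on the array, and 13 probes measure them. All 10 were tested, since the probe used for each was well above background on all 8 arrays.

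Expression was measured on single-colour Agilent arrays in mouse embryonic stem cells, with 2 biological replicates, named replicate 1 and replicate 2, in each of 4 groups. All cells, the untreated ones included, were cultured with LIF, which holds these cells in the undifferentiated state, and with 250 nM PD173074, which inhibits FGF receptors. Untreated cells received nothing further, and the other groups received 250 nM 4OHT (4-hydroxytamoxifen, a ligand used to activate proteins fused to a mutant oestrogen receptor) for 8 h, for 10 h, or for 8 h followed by 2 h of 1 µM PD0325901, an inhibitor of MEK, the kinase that activates ERK. The last group is called the inhibited cells below. The labels name no 4OHT-responsive protein, cell line, clone or solvent, and leave unsaid whether the inhibitor was added on top of 4OHT or replaced it. From the series title, the comparisons ask which transcripts follow ERK activity.

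Immediate early genes are transcribed within minutes of a stimulus by factors that the cell already holds, without new protein synthesis, and many of their transcripts are short-lived. ERK reaches several of them by phosphorylating ETS-family partners of the serum response factor SRF, which binds a sequence called the CArG box. Because PD173074 lowers FGF receptor signalling in embryonic stem cells, in which FGF4 is the main activator of ERK, the untreated group is a state of reduced receptor input rather than standard culture.

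Promoter sequence was at hand for 7 of the 10 members, and 5 windows are shown. Nr4a1, Ier3 and Ier5 rose under 4OHT and fell on inhibition, while Nr4a2 and Srf did not pass the main test. The windows of Phlda2 and Phlda3 are not shown. Each window is the 250 bases before the annotated start of transcription, from RefSeq on GRCm38.p6, printed 5′ to 3′ on the strand of the gene. Capitals mark matches, on either strand, to the CArG box, to TGACG (the core of cyclic AMP response elements), to CCGGAA (a core bound by ETS factors) and to TGANTCA (an AP-1 site). The windows are chr15:101266596-101266845 on the plus strand for Nr4a1, chr2:57124004-57124253 on the minus strand for Nr4a2, chr17:46556163-46556412 on the minus strand for Srf, chr17:35821463-35821712 on the plus strand for Ier3 and chr1:155099637-155099886 on the minus strand for Ier5. Those of Nr4a1 and Srf lie inside the span of the whole RefSeq gene, downstream of its outermost start.
Nr4a1: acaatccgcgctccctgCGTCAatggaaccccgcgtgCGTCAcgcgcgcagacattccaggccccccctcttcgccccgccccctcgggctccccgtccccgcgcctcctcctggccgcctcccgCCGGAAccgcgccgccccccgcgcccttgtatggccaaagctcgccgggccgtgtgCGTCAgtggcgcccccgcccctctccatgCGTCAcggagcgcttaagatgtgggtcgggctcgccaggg
Nr4a2: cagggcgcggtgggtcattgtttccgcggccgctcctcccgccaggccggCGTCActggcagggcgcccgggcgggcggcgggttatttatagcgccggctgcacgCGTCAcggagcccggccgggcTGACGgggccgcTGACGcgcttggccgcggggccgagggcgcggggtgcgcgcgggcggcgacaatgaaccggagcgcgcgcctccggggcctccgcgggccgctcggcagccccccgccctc
Srf: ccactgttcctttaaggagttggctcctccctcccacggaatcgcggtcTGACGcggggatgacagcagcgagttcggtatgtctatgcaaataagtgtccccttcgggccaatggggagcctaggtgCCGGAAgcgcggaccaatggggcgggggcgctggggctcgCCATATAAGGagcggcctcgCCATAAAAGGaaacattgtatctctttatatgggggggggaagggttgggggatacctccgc
Ier3: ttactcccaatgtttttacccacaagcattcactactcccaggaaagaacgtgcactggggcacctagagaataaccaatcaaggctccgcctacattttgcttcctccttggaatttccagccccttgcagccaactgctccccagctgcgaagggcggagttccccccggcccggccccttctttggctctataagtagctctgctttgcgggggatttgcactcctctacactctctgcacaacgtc
Ier5: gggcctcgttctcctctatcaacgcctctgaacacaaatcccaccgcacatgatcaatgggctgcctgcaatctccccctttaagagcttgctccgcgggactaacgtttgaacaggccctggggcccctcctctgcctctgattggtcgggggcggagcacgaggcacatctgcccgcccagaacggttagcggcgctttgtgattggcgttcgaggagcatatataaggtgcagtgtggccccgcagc

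The windows of Nr4a1 and Nr4a2 each held 4 matches to TGACG, and Nr4a1 also held 1 match to CCGGAA. At least 4 matches to TGACG were present in 0.137% of 32851 windows of the same length, and 1 or more in 17.8%. The Srf window held 2 CArG boxes, CCATATAAGG at 82 to 73 bases and CCATAAAAGG at 62 to 53 bases before the start, with 1 match each to TGACG and CCGGAA. A CArG box was present in 1.47% of all windows and at least 2 in 0.0183%. The windows of Ier3 and Ier5 held none of the 4 motifs marked, and the shares of all windows with CCGGAA and TGANTCA were 12.0% and 6.75%. Each of the pair held 1 match to TATAA (core of the TATA box, found in 22.8% of windows), at 58 to 54 bases before the start in Ier3 and at 26 to 22 in Ier5. Matches to TATAA were also present in Nr4a2 (at 163 to 159) and in Srf (at 79 to 75, inside a CArG box, and at 37 to 33). These matches describe letters and not sites in use.

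Values below are levels, the log2 of the processed signal relative to the array's 75th percentile (0 is that percentile, and each unit is a doubling), and differences between group means on the same log2 scale ± the standard error (SE) of the limma fit, with n = 2 arrays a group. A gene is called, and said to have risen or fallen, where limma's p, adjusted by Benjamini-Hochberg over all genes tested, was below 0.05. The fit behind these calls has no term for replicate number. A fit with that term, the replicate block, is given where it changes a call. All genes means the 22693 entries tested, of which 14498 have a symbol and the rest are unnamed array features. Levels of different genes come from different probes and are not compared. In these bulk samples, a change in the share of cells that express a gene and a change in RNA per cell cannot be told apart. Same-group arrays correlated at 0.992 to 0.9934. All 10 of the embryonic stem cell markers listed, Pou5f1, Sox2 and Nanog among them, were well above background on all 8 arrays. Of these, 3 rose (Utf1, Dppa4 and L1td1) and 2 fell at 10 h, Nanog by 3.10 ± 0.19 (limma adjusted p = 0.000427) and Esrrb by 0.84 ± 0.23 (0.0414). On inhibition Nanog rose by 1.66 ± 0.19 (0.00996), and Sox2, Utf1 and Dppa4 fell. Of 12 fibroblast markers, Col3a1, Dcn, Lum, Postn and Prrx1 had no matched probe that was kept. The summed linear level of the other 7, relative to the 75th percentile, was 108 to 118 in untreated cells and 129 to 160 at 8 h. It was 125 to 148 at 10 h and 105 to 123 in inhibited cells. In untreated cells this sum was mostly Fn1 and Vim (levels of 6.11 and 5.35). At 10 h 3 of these 7 rose, Thy1 by 3.62 ± 0.60 (adjusted p = 0.00937), Twist1 by 3.18 ± 0.23 (0.000725) and Vim by 0.67 ± 0.07 (0.00207), and 2 fell, Fn1 by 0.76 ± 0.14 (0.013) and Col1a1 by 0.58 ± 0.11 (0.0126). On inhibition Twist1 fell by 1.19 ± 0.23 (0.0442) and Col1a1 rose by 0.74 ± 0.11 (0.019). Of all genes, 27.9% were called at 10 h and 6.12% on inhibition. The part of these marker changes in the results for the members was not tested. The summed linear level of 10 primitive endoderm markers ranged from 62.3 to 90.3 in replicate 1 and from 28.5 to 44.8 in replicate 2. In untreated cells it was mostly Lama1, at a level of 5.51, the next being Col4a1 at 0.79. None of these markers was called in the 6 comparisons. Their SEs at 10 h were wide, from 0.58 to 1.34, so changes of that size could be missed. Slide row goes with replicate number and slide column with group, so column and group cannot be told apart.

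Of the 10 members 7 rose and 1 fell at 8 h of 4OHT, and 7 rose and 1 fell at 10 h. Over all genes, the percentage called was 21.7% at 8 h (10.3% higher and 11.5% lower) and 27.9% at 10 h (13.1% higher and 14.8% lower). Centring the arrays on their median moved the median difference of all genes at 10 h from -0.05 to 0.14, and the genes called higher and lower from 2978 and 3354 to 4861 and 1852. The median difference of the members was 0.72 at 8 h and 0.90 at 10 h, against -0.04 and -0.05 over all genes. After 2 h of PD0325901, 6 members were lower than in the cells left in 4OHT for 10 h and 0 were higher, where 6.12% of all genes were called (2.87% lower and 3.25% higher). Their median difference was -1.19, against -0.04 over all genes. The 10 h, inhibited and untreated groups enter more than 1 comparison, so the comparisons are not independent.

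**Figure D1:**
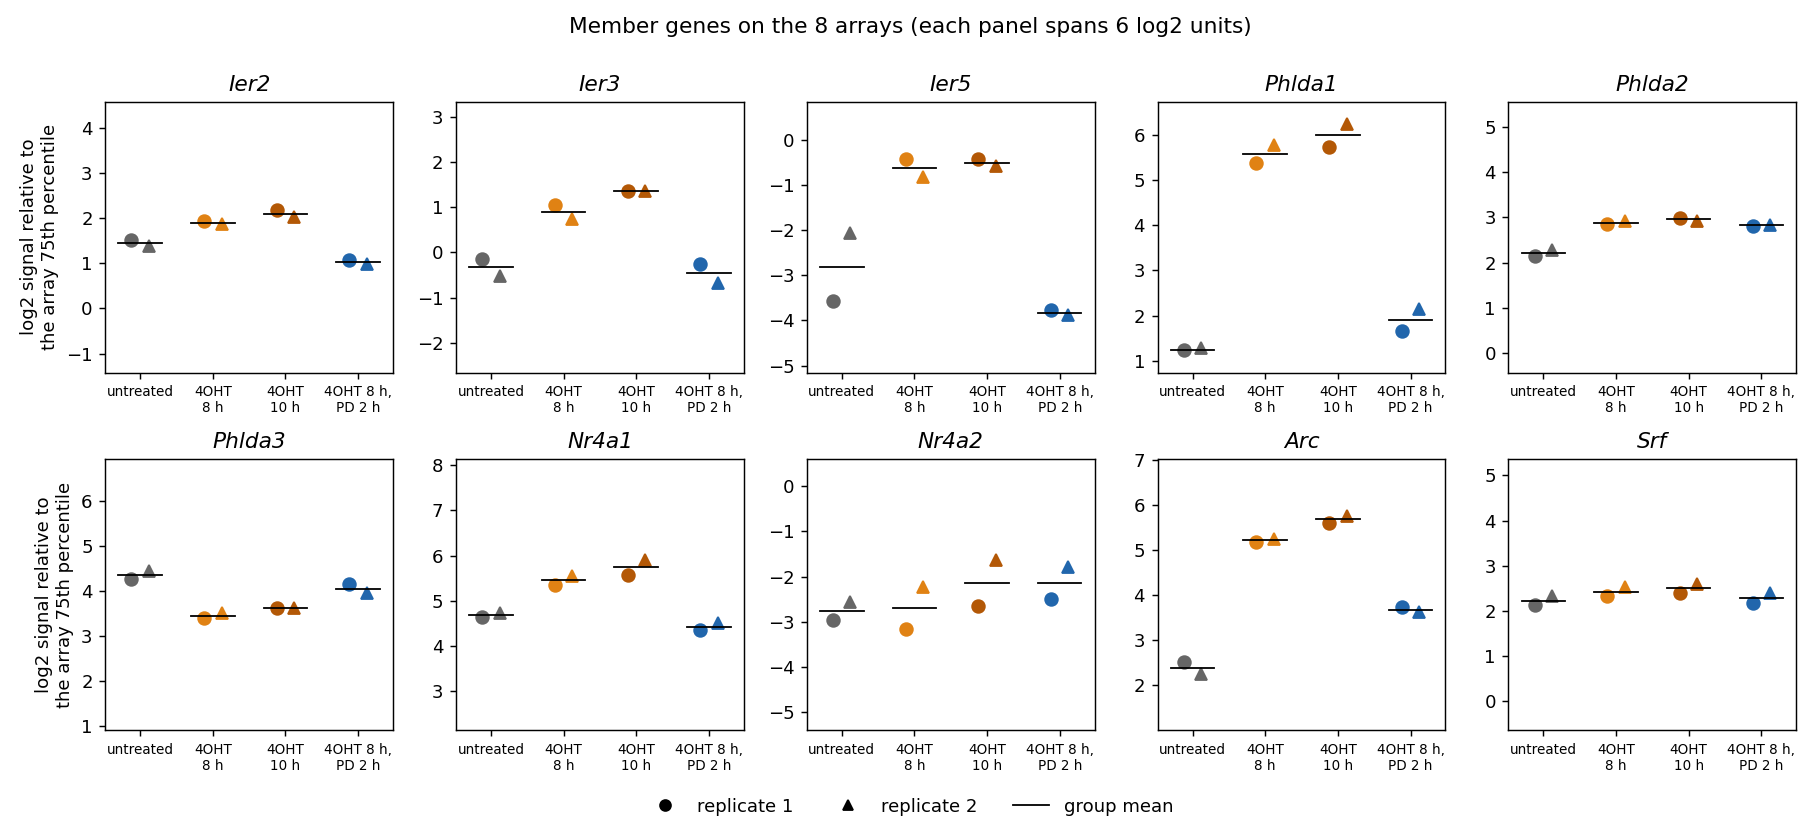
Levels of the 10 genes on each array: the vertical axis is the log2 signal relative to the array's 75th percentile and spans the same range in each panel, circles are replicate 1, triangles replicate 2 and lines group means. Phlda1 and Arc stood furthest apart between untreated and 4OHT arrays, Phlda3 was lower under 4OHT, and in Nr4a2 and Srf replicate 2 lay above replicate 1 in each group.

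Phlda1, which encodes a protein with a pleckstrin homology-like domain and is induced by growth factors in many cells, showed the widest range. Its level was 1.23 and 1.28 in untreated cells (replicates 1 and 2), 5.39 and 5.77 at 8 h, 5.74 and 6.25 at 10 h, and 1.67 and 2.15 in inhibited cells. All 4 arrays with 4OHT alone lay far above the other 4, and the inhibited pair lay just above the untreated pair without overlap. As processed signal, before scaling between arrays, the untreated arrays read 918.5 and 847.2 and the 10 h arrays 17685.8 and 25244.8. Phlda1 rose by 4.33 ± 0.24 at 8 h (20.0-fold, limma adjusted p = 0.00047) and by 4.75 ± 0.24 at 10 h (26.9-fold, 0.000304). Inhibited cells were 17.1-fold below the 10 h cells, a difference of -4.09 ± 0.24 (adjusted p = 0.00166). What was left above untreated, 0.65 ± 0.24, did not pass the test (adjusted p = 0.127) and did with the replicate number as a block (0.0247). The 3 calls of Phlda1 held when any 1 of the 8 arrays was left out.

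Phlda2, an imprinted gene that restrains placental growth, rose and was not called lower after inhibition. Its level was 2.14 and 2.28 in untreated cells, 2.85 and 2.91 at 8 h, 2.99 and 2.93 at 10 h, and 2.82 and 2.83 in inhibited cells. The untreated arrays were the lowest, and the 6 others lay within a narrow band in which the inhibited pair fell just below the rest. The rise was 0.67 ± 0.08 at 8 h (adjusted p = 0.00392) and 0.75 ± 0.08, or 1.68-fold, at 10 h (0.00225). Inhibited against 10 h cells the difference was -0.14 ± 0.08 (95% interval -0.33 to 0.06, limma adjusted p = 0.398). Inhibited cells stayed 0.61 ± 0.08 above untreated (adjusted p = 0.00837), a call lost without replicate 2 of the inhibited cells (0.0693).

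Phlda3, a p53 target whose product blocks AKT at the membrane, was the one member that fell. Its level was 4.27 and 4.43 in untreated cells, 3.40 and 3.50 at 8 h, 3.63 and 3.63 at 10 h, and 4.16 and 3.95 in inhibited cells. The 4OHT arrays were the lowest and the inhibited pair lay between them and the untreated pair, with no overlap. The difference was -0.90 ± 0.11 at 8 h (adjusted p = 0.00381) and -0.72 ± 0.11, 1.65-fold lower, at 10 h (0.00622), the latter call being lost without replicate 2 of the 10 h cells (0.0534). In inhibited cells the level was 0.42 ± 0.11 above that at 10 h, which did not pass (95% interval 0.16 to 0.68, adjusted p = 0.0854) but did after quantile normalization (0.54, adjusted p = 0.0395) and with a robust prior that follows intensity (0.0318). Against untreated cells, inhibited cells differed by -0.30 ± 0.11 (limma adjusted p = 0.116).

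The 3 IER genes are named as immediate early response genes, and all 3 rose under 4OHT and fell on inhibition. Ier2 had levels of 1.52 and 1.39 in untreated cells, 1.93 and 1.87 at 8 h, 2.17 and 2.02 at 10 h, and 1.07 and 0.99 in inhibited cells. The 4 groups did not overlap, and the inhibited arrays were the lowest of all. Ier2 rose by 0.44 ± 0.09 at 8 h (limma adjusted p = 0.0228) and by 0.64 ± 0.09, or 1.56-fold, at 10 h (0.00579). Inhibited cells were 2.09-fold below 10 h cells (-1.06 ± 0.09, adjusted p = 0.00422) and also below untreated cells (-0.42 ± 0.09, adjusted p = 0.0338). That last call is weak, as it was lost whichever of the 8 arrays was left out (adjusted p 0.0545 to 0.164) and when the arrays were centred on their median (-0.31, 0.183). The call at 8 h was lost without untreated replicate 1 (0.0503) or 2 (0.12), without 8 h replicate 1 (0.108) or 2 (0.119) and without inhibited replicate 2 (0.0574), and the call against 10 h was lost without inhibited replicate 2 (0.0525).

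Ier3, which encodes a stress-inducible regulator of survival that ERK phosphorylates, had levels of -0.14 and -0.52 in untreated cells, 1.05 and 0.74 at 8 h, 1.35 and 1.35 at 10 h, and -0.26 and -0.67 in inhibited cells. The 4OHT arrays were all above the other 4, among which untreated and inhibited arrays overlapped. Ier3 rose by 1.23 ± 0.20 at 8 h (limma adjusted p = 0.0107) and by 1.68 ± 0.20, or 3.21-fold, at 10 h (0.00323). Inhibited cells were 3.52-fold below 10 h cells (-1.82 ± 0.20, adjusted p = 0.00909) and differed from untreated cells by -0.13 ± 0.20 (0.686). The 8 h call was lost without 8 h replicate 1 (0.0576) or untreated replicate 2 (0.0678). The call against 10 h was lost without 10 h replicate 1 (0.0506) or 2 (0.0856) or inhibited replicate 2 (0.0648).

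Ier5, whose product is linked to the heat shock factor HSF1, had levels of -3.56 and -2.06 in untreated cells, -0.42 and -0.82 at 8 h, -0.42 and -0.59 at 10 h, and -3.78 and -3.89 in inhibited cells. The 4OHT arrays were the highest, and the untreated pair was spread more widely than any other pair of this gene, with both above the inhibited pair. Ier5 rose by 2.19 ± 0.47 at 8 h (limma adjusted p = 0.0251) and by 2.31 ± 0.47, or 4.95-fold, at 10 h (0.0176), and inhibited cells were 10.1-fold below 10 h cells (-3.33 ± 0.47, 0.0179). The rise at 10 h was 1.56 without untreated replicate 1 and 3.06 without replicate 2 (1.44 and 2.94 at 8 h). Under normexp background correction the differences were 1.47 at 8 h, 1.61 at 10 h and -1.89 for inhibited against 10 h cells. Against untreated cells, inhibited cells differed by -1.03 ± 0.47 (0.192), which passed without untreated replicate 1 (-1.78, adjusted p = 0.0224).

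The Ier5 calls depended on single arrays. At 10 h the call was lost without 10 h replicate 1 (limma adjusted p = 0.0786) or 2 (0.0906). At 8 h it was lost without 8 h replicate 1 (0.111) or 2 (0.105), 10 h replicate 1 (0.0536) or 2 (0.0624), or inhibited replicate 1 (0.0553) or 2 (0.0675). For inhibited against 10 h cells it was lost without 10 h replicate 1 (0.0825) or 2 (0.124), inhibited replicate 1 (0.0954) or 2 (0.119), or 8 h replicate 2 (0.0612), and with no filter on dim probes (0.0711). A second, dimmer probe of Ier5 was not well above background on either untreated array and on 1 of 2 inhibited arrays. Its measured difference from untreated was 2.65 at 8 h (limma adjusted p = 0.026 over all probes kept) and 2.79 at 10 h (0.0183). For each untreated array, the higher of its measured signal and that array's lowest signal well above background was put in. This was the measured signal on replicate 1 (-5.32 against -5.357) and the lowest signal well above background on replicate 2. So treated, the probe was 3.21-fold higher at 8 h and 3.53-fold higher at 10 h. These folds are approximate lower bounds and were not tested. Its difference between inhibited and 10 h cells was -2.46 and did not pass (0.0721). Inhibited cells were 0.33 above untreated cells on this probe (0.73), opposite in sign to the probe used.

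Arc, known as an activity-regulated gene of neurons whose product acts at synapses, rose strongly and fell part of the way back. Its level was 2.51 and 2.26 in untreated cells, 5.17 and 5.25 at 8 h, 5.60 and 5.76 at 10 h, and 3.73 and 3.62 in inhibited cells. The 4 groups did not overlap, and the inhibited pair lay in between the untreated and the 4OHT arrays. Arc rose by 2.83 ± 0.11 at 8 h (7.09-fold, limma adjusted p = 0.000231) and by 3.29 ± 0.11 at 10 h (9.81-fold, 0.000112). Inhibited cells were 4.0-fold below 10 h cells (-2.0 ± 0.11, adjusted p = 0.0015). It remained 2.45-fold above untreated, at 1.29 ± 0.11 (adjusted p = 0.00305). All 4 of these calls held when any 1 of the 8 arrays was left out.

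The NR4A genes encode orphan nuclear receptors, and of the 2 members measured here Nr4a1 was called and Nr4a2 was not. Nr4a1 (Nur77) had levels of 4.63 and 4.73 in untreated cells, 5.36 and 5.55 at 8 h, 5.57 and 5.91 at 10 h, and 4.36 and 4.50 in inhibited cells. The 4OHT arrays were the highest and the inhibited pair was just below the untreated pair. Nr4a1 rose by 0.77 ± 0.14 at 8 h (limma adjusted p = 0.0147) and by 1.06 ± 0.14, or 2.09-fold, at 10 h (0.00444). Inhibited cells were 2.48-fold below 10 h cells (-1.31 ± 0.14, adjusted p = 0.00831) and differed from untreated cells by -0.25 ± 0.14 (0.278). The call at 8 h was lost without untreated replicate 1 (0.0766) or 2 (0.0729) or 8 h replicate 2 (0.109). The call against 10 h was lost without inhibited replicate 1 (0.0602) or 2 (0.0628) or 10 h replicate 2 (0.0566), and with only the 2 groups compared (0.0556).

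Nr4a2 (Nurr1), with the same number of TGACG matches in its window, had levels of -2.97 and -2.57 in untreated cells, -3.16 and -2.23 at 8 h, -2.66 and -1.64 at 10 h, and -2.50 and -1.78 in inhibited cells. Replicate 2 was above replicate 1 in every group, and the spread within groups exceeded most distances between them. The difference from untreated was 0.07 ± 0.48 at 8 h (95% interval -1.11 to 1.26, limma adjusted p = 0.93) and 0.62 ± 0.48 at 10 h (-0.57 to 1.81, 0.375), and inhibited minus 10 h cells gave 0.01 ± 0.48 (-1.18 to 1.19, 0.994). With the replicate number as a block, the differences from untreated of 0.62 at 10 h and 0.63 in inhibited cells passed (0.0397 and 0.0496). Its second probe gave 0.30 at 8 h (0.66), 0.47 at 10 h (0.445) and 0.25 for inhibited against 10 h cells (0.794). The difference between Nr4a1 and Nr4a2 in response was not tested. Nr4a3, the remaining member of the family, had no matched probe that was kept and was not tested.

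Srf, the gene of the serum response factor itself, had levels of 2.13 and 2.33 in untreated cells, 2.34 and 2.53 at 8 h, 2.40 and 2.59 at 10 h, and 2.18 and 2.40 in inhibited cells. Replicate 2 exceeded replicate 1 in each group by about as much as the groups differed. The difference from untreated was 0.21 ± 0.13 at 8 h (95% interval -0.12 to 0.54, limma adjusted p = 0.326) and 0.27 ± 0.13 at 10 h (-0.06 to 0.60, 0.186), and inhibited minus 10 h cells gave -0.21 ± 0.13 (-0.54 to 0.12, 0.438). With the replicate number as a block both differences from untreated passed (0.0439 and 0.0179), as did that at 10 h with the arrays centred on their median (0.46, 0.0338). A second Srf probe gave 0.09 at 8 h (0.512), 0.25 at 10 h (0.0764) and -0.17 for inhibited against 10 h cells (0.318).

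**Figure D2:**
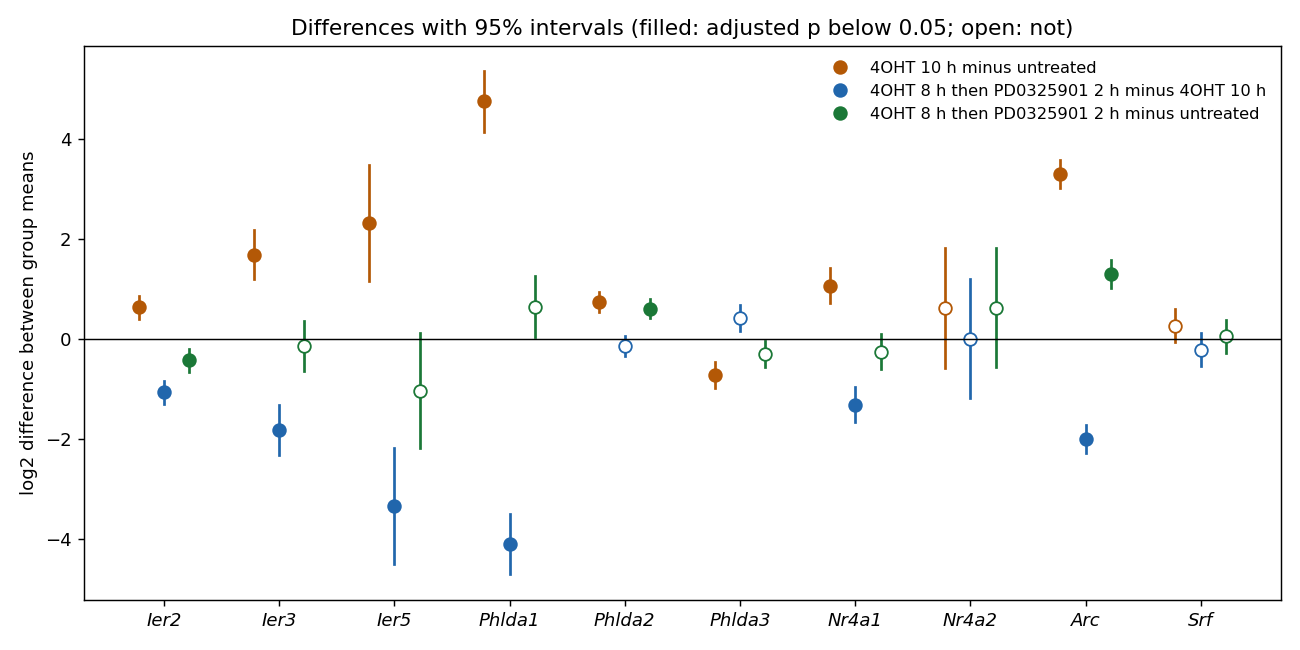
Log2 differences between group means with 95% intervals from the limma fit, for 4OHT 10 h against untreated (orange), inhibited against 10 h (blue) and inhibited against untreated (green). Filled points passed the adjusted p of 0.05 and open points did not; 6 members passed with a negative blue value, and of the green points Arc, Phlda2 and Ier2 passed.

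In inhibited against untreated cells, 2 members were higher (Arc and Phlda2) and 1 lower (Ier2), where 15.8% of all genes were called (7.05% higher and 8.79% lower). With the replicate number as a block, 5 members were called, 4 higher and 1 lower. For the 8 members called at 10 h, the share of the 10 h log2 change gone after 2 h of PD0325901 is listed from smallest to largest. This share does not give an order in time. It was 18.1% for Phlda2 (20.2% in replicate 1 and 15.3% in replicate 2), 58.9% for Phlda3 (83.0% and 39.5%) and 60.7% for Arc (60.4% and 61.0%). Phlda1 followed at 86.2% (90.3% and 82.5%) and Ier3 at 108% in both replicates. Values above 100% mean a level below that of untreated cells, as for Nr4a1 at 123% (128% and 119%), Ier5 at 144% (107% and 224%) and Ier2 at 166% (171% and 162%). The replicates of Phlda3 overlapped those of Arc and Phlda1, and those of Ier5 spanned Ier3, Nr4a1 and Ier2, so these are not ordered. Differences in this share between members were not tested. Of the members above 100%, Ier2 alone passed the test against untreated cells. The second Ier5 probe had inhibited cells 0.33 above untreated cells (limma adjusted p = 0.73), so for Ier5 the sign differs between probes.

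**Figure D3:**
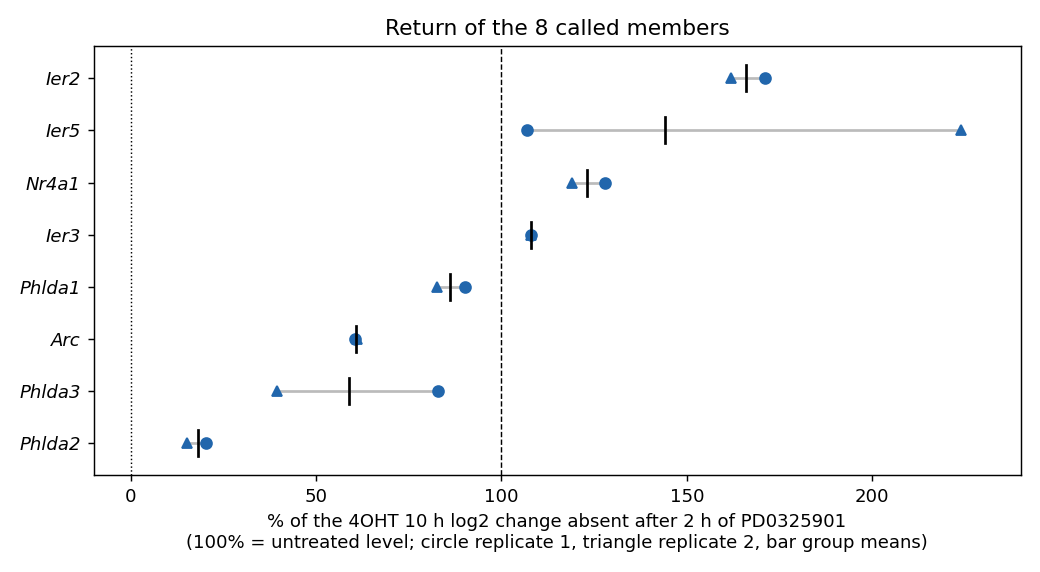
Percent of the log2 change at 4OHT 10 h that was absent after 8 h of 4OHT and 2 h of PD0325901, for the 8 members called at 10 h; circles are replicate 1, triangles replicate 2 and bars the group means. Phlda2 lay at 18.1%, Arc at 60.7% and Phlda1 at 86.2%, while Ier3, Nr4a1, Ier5 and Ier2 lay beyond the dashed line at 100%, the untreated level.

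Against the 8 h cells, from which the inhibited cells set out, 6 members were lower and 1 was higher, where 6.52% of all genes were called (3.11% lower and 3.41% higher). Phlda1 differed by -3.67 (limma adjusted p = 0.00227) and Arc by -1.53 (0.00321), and these 2 calls held when any 1 array was left out. Ier2 (-0.86, adjusted p = 0.00797) lost its call without 8 h replicate 1 (0.0526) or 2 (0.0777) or inhibited replicate 2 (0.072). Ier3 (-1.36, 0.019) and Ier5 (-3.22, 0.0188) lost theirs without any 1 of the 6 arrays with 4OHT (0.0519 to 0.108 and 0.0505 to 0.122). Nr4a1 (-1.02, 0.0157) lost it without 8 h replicate 1 (0.0576) or 2 (0.122), inhibited replicate 1 (0.0865) or 2 (0.0913), or untreated replicate 2 (0.0553). Phlda3 was 0.60 higher (0.0308), a call lost whichever of the 8 arrays was left out (0.0583 to 0.15). Between 8 h and 10 h of 4OHT none of the members was called. In limma 0 of 22692 genes were called there (0.0%), with 1501 at an unadjusted p below 0.05, and the member with the smallest adjusted p was Arc (0.47 ± 0.11, adjusted p = 0.603).

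For the 6 members whose group means spanned at least 1 log2 unit, the genes most like them over the 8 arrays were sought among 2640 genes that also spanned at least 1. Arc was nearest to Fosl1 (Pearson r = 0.9989), Dusp5 (0.9978) and Shb (0.9956). Phlda1 was nearest to Rarg (0.9956), Gem (0.995) and Txnip (0.9948). Nr4a1 was nearest to Gsx1 (0.9924), Fos (0.9914) and Jun (0.9905), Ier2 to Rell1 (0.9975), Hbegf (0.9903) and Zfp36l1 (0.9834), and Ier3 to Zfp36 (0.9867), Tsc22d1 (0.9863) and Csrnp1 (0.9816). Ier5 was nearest to Chrna9 (0.9853), Traf4 (0.9827) and Platr8 (0.9823), the last of which was well above background on 0 of 2 untreated and 0 of 2 inhibited arrays. These values describe n = 8 arrays that fall into 4 groups and share their scaling. The likeness is of pattern and not of size: with Arc at 3.29 and -2.0, Fosl1, an AP-1 subunit, differed by 4.38 ± 0.15 at 10 h and by -2.64 ± 0.15 on inhibition, and Dusp5, a nuclear phosphatase of ERK, by 4.39 ± 0.13 (with 1 of 2 untreated arrays well above background) and -2.53 ± 0.13. Hbegf, a ligand of the EGF receptor, differed by 2.33 ± 0.15 and -3.56 ± 0.15, more than Ier2 both ways.

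Among 28 other immediate early genes of the AP-1, EGR and related families, 26 were tested, of which 17 rose and 2 fell at 10 h (median 1.28). On inhibition 15 were lower and 3 higher (median -0.88). Over all genes, 27.9% were called at 10 h and 6.12% on inhibition. Besides Fosl1, the genes with the smallest adjusted p at 10 h were Dusp1 (2.09 ± 0.10, limma adjusted p = 0.000279), a phosphatase of MAP kinases, Maff (1.88 ± 0.11, 0.000407) and Gadd45b, a stress-response gene, which fell (-2.30 ± 0.14, 0.000414). On inhibition Myc fell by 5.26 ± 0.15 (0.00028) and Egr1 by 5.39 ± 0.29 (0.00141), Dusp1 by 2.62 ± 0.10 (0.000731) and Maff by 2.18 ± 0.11 (0.0013). Gadd45b, lower at 10 h as Phlda3 was, rose by 2.14 ± 0.14 on inhibition (0.00195). Ier5l, a paralogue of Ier5, rose by 1.30 ± 0.11 at 10 h (0.00114) and fell by 1.57 ± 0.11 on inhibition (0.00249).

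Most of the 13 genes listed as ERK feedback genes restrain the pathway, while Etv4 and Etv5 encode ETS transcription factors. Of the 13, 11 rose and 0 fell at 10 h (median 1.91), and 9 fell and 0 rose on inhibition (median -1.76). The shares called over all genes were 27.9% at 10 h and 6.12% on inhibition. The clearest at 10 h were Dusp5, Dusp6 (2.95 ± 0.09, limma adjusted p = 0.000108), Spred1 (1.97 ± 0.07, 0.000117) and Etv4 (1.91 ± 0.08, 0.000195). On inhibition Dusp6, the cytoplasmic ERK phosphatase, fell by 5.85 ± 0.09 (5.3e-05) and ended 2.90 ± 0.09 below untreated. Spry4 differed by -7.62 ± 0.16 (0.000118), with 1 of 2 inhibited arrays well above background, and Spry2 by -2.94 ± 0.10 (0.000359). In inhibited cells Etv4 differed by -0.31 ± 0.08 from 10 h cells (0.107) and was 1.61 ± 0.08 above untreated (0.000689).

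Genes that work with SRF, or that it regulates through MRTF coactivators, were also counted. Of the 5 SRF cofactors tested of 6, 1 rose at 10 h and 0 were called on inhibition, against 27.9% and 6.12% of all genes called. Elk4, an ETS partner of SRF, was higher by 0.34 ± 0.09 at 10 h (limma adjusted p = 0.0394), a call lost whichever of the 8 arrays was left out (0.0584 to 0.167). Elk1 (0.02 ± 0.08), Elk3 (1.24 ± 0.46, 0.0995), Mrtfa (-0.31 ± 0.10, 0.0649) and Mrtfb (0.10 ± 0.18) were not called, Elk3 passing with the replicate number as a block at 10 h (0.00058) and on inhibition (-0.90, 0.00489), and Mrtfa passing at 10 h after quantile normalization (-0.37, 0.0341), with normexp (-0.28, 0.0333), with probes averaged (-0.34, 0.0281), with an intensity-dependent prior (0.0342) and without inhibited replicate 1 (0.0398). Of 19 cytoskeletal targets of SRF and MRTF, 4 rose and 6 fell at 10 h (median -0.24), where 27.9% of all genes were called. The smallest adjusted p belonged to Fhl2 (4.80 ± 0.12, 9.3e-05), Cnn2 (-1.04 ± 0.08, 0.000977), Zyx (1.23 ± 0.11, 0.00141) and Tagln2 (0.62 ± 0.06, 0.00205). Fhl2, a LIM-domain coregulator, was still 4.06 ± 0.12 above untreated after inhibition (0.000261). On inhibition 1 of the 19 was higher (Lima1, 1.25 ± 0.21, 0.0305) and 1 lower (Fhl2, -0.74 ± 0.12, 0.0273), where 6.12% of all genes were called. The Fhl2 call was lost without any array other than 10 h replicate 1 (0.0638 to 0.144), and that of Lima1 without any array other than 8 h replicates 1 and 2 (0.0505 to 0.171).

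The p53 targets, the class to which Phlda3 belongs, moved both ways at 10 h. Of 16 tested, 3 rose and 5 fell at 10 h (median -0.18), and 2 rose and 0 fell on inhibition (median 0.18). Among all genes, 27.9% were called at 10 h and 6.12% on inhibition. Sesn1, a stress-induced inhibitor of mTORC1 signalling, fell by 1.13 ± 0.09 at 10 h (limma adjusted p = 0.000863) and rose by 0.91 ± 0.09 on inhibition (0.0059), and Ei24 fell by 1.13 ± 0.09 (0.000873) and rose by 0.93 ± 0.09 (0.00571). The calls of both on inhibition were lost without 10 h replicate 2 (0.0653 for Sesn1, 0.062 for Ei24) or inhibited replicate 2 (0.0615 and 0.059). Perp, a desmosome-associated gene, rose by 2.11 ± 0.21 (0.002) and Tnfrsf10b, a death receptor, by 0.96 ± 0.13 (0.00482), and neither was called on inhibition (-0.31 ± 0.21 and -0.37 ± 0.13).

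Of 10 genes of the imprinted domain around Phlda2, 8 were tested, 0 rose and 2 fell at 10 h, a share called near the 27.9% of all genes. Cd81 differed by -0.54 ± 0.09 (limma adjusted p = 0.00813), a call lost without untreated replicate 2 (0.0548) or 10 h replicate 2 (0.0711) and with the arrays centred on their median (-0.36, 0.058). Ascl2, a trophoblast transcription factor gene, differed by -1.20 ± 0.29 at 10 h (0.0322), lost without untreated replicate 1 (0.0667) or 2 (0.155), 10 h replicate 1 (0.134) or 2 (0.0936) or inhibited replicate 2 (0.0529). It was 2.55 ± 0.29 higher in inhibited than in 10 h cells (0.0104), lost without 10 h replicate 1 (0.0546) or 2 (0.0705) or inhibited replicate 2 (0.0793). The RXR genes, whose products pair with NR4A1 and NR4A2, were not called at 10 h (Rxra -0.08 ± 0.08, Rxrb -0.27 ± 0.08, Rxrg 0.04 ± 0.11) or on inhibition (0.03 ± 0.08, 0.05 ± 0.08 and -0.19 ± 0.11). Rxrb passed at 10 h with the replicate block (0.0271), after quantile normalization (-0.39, 0.0139) and with normexp (-0.23, 0.0497). It also passed with an intensity-dependent prior (0.0228) and among probes well above background on all 8 arrays (0.0484). For Rxrg the probe used gave 0.04 at 10 h, while its kept probes averaged 2.04 (limma adjusted p = 0.000361). The kept probes of Rxrg thus disagreed, and its lack of a call at 10 h holds for the probe used only.

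**Figure D4:**
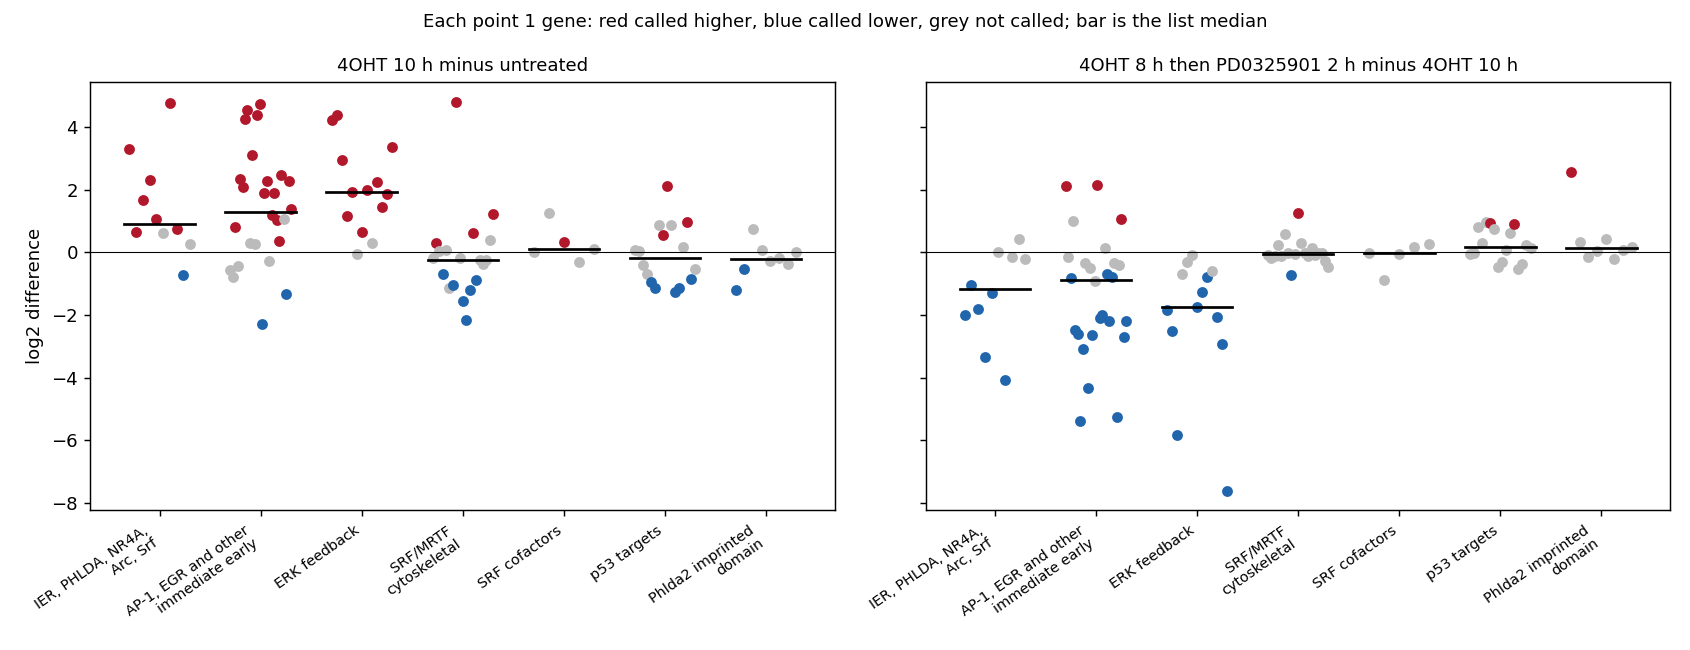
Log2 differences of single genes, by list, for 4OHT 10 h against untreated (left) and inhibited against 10 h cells (right); red points were called higher, blue lower and grey not called, and bars are list medians. The members had medians of 0.90 and -1.19, the other immediate early genes 1.28 and -0.88, the ERK feedback genes 1.91 and -1.76, and the cytoskeletal targets -0.24 and -0.05.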

How the data were processed

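Total RNA was hybridised to 8 arrays, 2 biological replicates in each of 4 groups. The processed signal is a background-subtracted intensity, not scaled between arrays, from Agilent Feature Extraction (version 11.0.1.1, per the file headers). The deposited value table repeats this intensity, with differences of at most 0.5%. The labels name Cy5, while the files hold 1 channel called green.

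Control spots (3671 of 62976) and outlier spots were left out, and 0 spots were saturated. Spots well above background made up 62.2% to 63.7% of the other spots on replicate 1 arrays and 51.0% to 53.0% on replicate 2 arrays, which limits precision for dim probes. Of 55681 probes, 27656 matched 1 gene symbol through the GRCm38.p6 RefSeq table, 0 several and 28025 none. Log2 signals minus each array's 75th percentile were fitted in R 4.3.3 with limma 3.58.1, with a mean per group over all 8 arrays. The 30336 probes kept were well above background on both replicates of 1 or more groups, and a gene was its kept probe with the highest mean. Features without a symbol were counted as genes under their array name, so 14498 of the 22693 genes tested have a symbol. The p-values were two-sided and adjusted by Benjamini-Hochberg over all 22693. The fit was also run on simulated arrays, drawn independently of each other, to check that the median fitted change was close to the true one. That run did not cover deviations shared by arrays with the same replicate number. Tables and figures used Python 3.11.15, numpy 2.4.6, pandas 2.3.3 and matplotlib 3.10.9.

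Replicate numbers come from the labels. For each of the 6 pairs of groups, arrays with the same number deviated together from their group means (correlation 0.29 to 0.36). The main fit did not use this pairing, and the block with the replicate number, which does, was an alternative. With the block 8859 of 22692 genes were called at 10 h, against 6332 in the main fit. Named genes were all members, from each list up to 4 called genes by smallest adjusted p at 10 h and up to 4 on inhibition, every gene of lists of 6 or fewer, and the 3 genes most like each member that spanned 1 log2 unit. The members and lists were chosen with earlier results of these data known. Alternatives were quantile normalization, centring on the median, normexp background correction (offset 50, on median spot and background signals), other probe filters and probe averaging, an intensity trend with robust prior, the deposited value table, only the groups compared, the replicate block and leaving out each array.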

Additional observations from a re-analysis of the deposited data

How the results depend on the processing

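Of 10 alternatives beside leaving out arrays, the following moved a count of members called by over 1.5 times. With no filter on dim probes, which raises the genes tested, 5 members in place of 8 were called at 8 h and 3 in place of 7 for inhibited against 8 h cells. With only the 2 groups compared in the fit, which leaves fewer arrays for the spread, 4 in place of 7 were called for inhibited against 8 h cells and 1 in place of 3 for inhibited against untreated. Both settings ended the calls of Ier5 at 10 h (adjusted p = 0.0551 and 0.0632) and 8 h (0.0763 and 0.0871) and of Ier2 at 8 h (0.0927 and 0.0619), the first that of Nr4a1 at 8 h (0.0562), and the second that of Phlda2 in inhibited against untreated cells (0.0516). The replicate block gave 5 in place of 3 for inhibited against untreated cells; beside that and the changes named above for Phlda1, Nr4a2, Srf, Elk3 and Rxrb it changed no other call among the members and the named list genes, over the comparisons rerun for them (the genes chosen for likeness were not rerun). Leaving out 1 array gave 5 to 7 members called, against 8, at 8 h, 6 to 8, against 8, at 10 h, 2 to 6, against 6, for inhibited against 10 h, 2 to 6, against 7, for inhibited against 8 h and 1 to 3, against 3, for inhibited against untreated cells (Ier2 is lost each time, and Ier5 is newly called without untreated replicate 1), the fewest for the third without inhibited replicate 2 (2) and 10 h replicate 2 (3). The members called between 8 h and 10 h stayed at 0. Over all genes, calls at 10 h ranged from 2542 without 10 h replicate 2 to 8859 with the block, against 6332. No filter gave 3306, 2303 at 8 h (against 4932) and 333 on inhibition (against 1389).

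Signs turned only for differences that were not called. Under quantile normalization these were Phlda2 (inhibited against 8 h, 0.01), Nr4a2 (inhibited against 10 h, -0.03), Elk1 (-0.07 at 10 h, 0.07 on inhibition), Rxra (0.01) and Rxrg (-0.03) at 10 h. Centred on the median they were Nr4a2 (-0.07), Rxra (-0.04) and Rxrb (-0.03) on inhibition and Rxra at 10 h (0.11); with probes averaged, Elk1 (-0.23) and Mrtfb (-0.02) at 10 h and Rxra on inhibition (-0.02); with normexp, Srf against untreated (-0.08). Leaving out 1 array at a time gave ranges that crossed 0. In inhibited against untreated cells these were -0.34 to 0.07 for Ier3 (above 0 also at 0.06) and -0.05 to 0.17 for Srf (below 0 also at -0.04). Between 8 h and 10 h they were -0.09 to 0.31 for Ier5 and -0.03 to 0.16 for Srf, and for Nr4a2 they were -0.39 to 0.54 at 8 h (below 0 also at -0.12) and -0.50 to 0.52 on inhibition (also -0.35). At 10 h they included -0.03 for Elk1, -0.09 to 0.28 for Mrtfb and -0.08 to 0.15 for Rxrg, and on inhibition -0.10 to 0.01 for Elk1, -0.03 to 0.10 for Rxra (also -0.01) and -0.02 to 0.12 for Rxrb. Except where an alternative's construction shows it, the cause was not tested. With 2 arrays a group, some differences of Srf and Nr4a2 from untreated cells passed with the replicate block and not without it, and the dim probes of Ier5 and Nr4a2 limit theirs further.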
